A study of Mus musculus with 6 samples.

Results

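The genes described here are the main ligand and receptor families of axon guidance: the semaphorins and their plexin receptors, the ephrins and their Eph receptors, the Slits and their Robo receptors, and the netrins with their receptors Dcc and Unc5. Members were found by a rule on gene symbols that uses no measured value, although the families were picked with earlier results of these data known, and the rule found 68 of the 35976 genes in the count files. Of these, 35 encode ligands, 32 encode receptors and 1, Plxna4os1, is an antisense RNA that starts with the name of a plexin. The RNA came from the amygdala (male mice, C57BL/6J), from cells isolated as neurons by magnetic sorting, in 3 libraries for sgRosa and 3 for sgEgfr. Mice of both groups carried an adeno-associated virus with Cas9 under the astrocyte promoter GfaABC1D, with guides against Rosa as control or against Egfr, the epidermal growth factor receptor. The virus was expressed for more than 2 weeks, and both groups then went through tube restraint for 7 days, fear conditioning on 1 day and extinction over 3 days, so no group without stress is compared. Editing was directed at astrocytes, while cells sorted as neurons were sequenced. The labels give neither the age of the mice nor whether each library came from a separate animal. P-values therefore measure the spread between these libraries.

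Guidance proteins steer growing axons by attraction and repulsion, and in the adult brain the same families act on spines, synapses, myelin and blood vessels. Class 3 semaphorins are secreted and mostly signal through complexes of neuropilins with A plexins, whereas classes 4 to 7 are bound to the membrane and can bind plexins directly. Ephrin-A ligands are held in the membrane by a lipid anchor and ephrin-B ligands by a transmembrane segment, and both meet Eph receptor tyrosine kinases on a neighbouring cell. Slits are secreted repellents read by Robo receptors, and netrins attract axons through Dcc and repel them through Unc5 receptors.

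The promoters of 3 members are shown because these are the members with an unadjusted p under 0.05 in the comparison described next. Each is the run of 250 bases before the gene's start in RefSeq (build GRCm38.p6), written 5′ to 3′ on the strand of the gene. Capitals mark GGGCGG on either strand, the core of a GC box. The RefSeq start of Plxna2 lies inside the gene as GENCODE draws it. The stretch of Sema7a lies at chr9:57939862-57940111 (plus strand), that of Efnb2 at chr8:8661243-8661492 (minus strand) and that of Plxna2 at chr1:194619579-194619828 (plus strand).
Sema7a: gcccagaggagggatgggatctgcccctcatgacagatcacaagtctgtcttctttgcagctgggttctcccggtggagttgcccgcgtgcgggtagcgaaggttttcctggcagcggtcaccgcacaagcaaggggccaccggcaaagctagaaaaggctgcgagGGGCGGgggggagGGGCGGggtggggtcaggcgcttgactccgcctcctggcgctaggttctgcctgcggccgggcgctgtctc
Efnb2: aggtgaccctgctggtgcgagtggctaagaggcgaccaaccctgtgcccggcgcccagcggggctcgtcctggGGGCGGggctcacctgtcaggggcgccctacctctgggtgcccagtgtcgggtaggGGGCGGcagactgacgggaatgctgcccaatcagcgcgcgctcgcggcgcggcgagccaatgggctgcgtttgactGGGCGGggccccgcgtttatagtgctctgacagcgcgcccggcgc
Plxna2: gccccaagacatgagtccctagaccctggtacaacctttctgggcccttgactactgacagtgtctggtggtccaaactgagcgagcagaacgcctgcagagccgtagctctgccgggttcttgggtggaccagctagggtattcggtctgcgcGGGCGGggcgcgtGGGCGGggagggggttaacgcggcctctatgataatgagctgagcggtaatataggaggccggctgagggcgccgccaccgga
GGGCGG occurred 2 times before Sema7a, 3 times before Efnb2 and 2 times before Plxna2, and the GC content was 66.4%, 72.0% and 62.8%. Promoters were found for 57 members (73 windows, since some genes have several starts). They were looked up among all 68 members, tested or not, so this set was not chosen as the tested members. Of these windows 69.9% held GGGCGG, against 56.4% of 13001 windows of all tested genes and 32.7% of all 32851 windows. AGGTCA on either strand, a motif bound by several nuclear receptors, was in none of the 3 stretches shown and in 13.7% of member windows, against 10.5% of windows of tested genes. These matches describe letters only.

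Total counts per library ranged from 2348897 to 10152812, and a floor of 3 counts corresponded to 0.270 to 1.25 CPM (counts scaled to library size by TMM, the unit of all levels below). All 12 pan-neuronal markers were detected in every library, with summed levels of 1587 to 4656 CPM in sgRosa and 2627 to 4545 CPM in sgEgfr. All 8 oligodendrocyte markers were detected too, at 23980 to 69725 CPM in sgRosa and 22192 to 56658 CPM in sgEgfr. Their sum was above the pan-neuronal sum in every library. Markers of other cells were thus abundant, and levels of members cannot be read as those of neurons alone. The pan-neuronal mean was lowest in sgRosa replicates 1 and 2 (6.45 and 6.49 log2 CPM, against 7.03 to 7.80 in the other 4 libraries), and these 2 had the highest oligodendrocyte means (11.68 and 11.28, against 9.48 to 11.01). Excitatory neuron markers were also lowest there (4.03 and 4.49, against 5.28 to 6.30), and inhibitory neuron markers were highest there (3.98 and 4.22, against 2.19 to 2.89). By group, log2 fold changes were positive for 12 of 12 pan-neuronal markers (median 0.47) and 6 of 6 excitatory markers (median 0.86). They were positive for 0 of 6 tested inhibitory markers (median -1.15) and 0 of 8 oligodendrocyte markers (median -0.83). The choroid plexus and ependymal markers, of which Ttr, Folr1 and Kcne2 were at 0 counts in at least 1 library, summed to 3395 CPM in sgRosa replicate 3 and 2265 CPM in sgEgfr replicate 1 and to at most 68.5 CPM elsewhere. Red blood cell markers had a median log2 fold change of 1.78 (5 of 5 positive) and reached 4047 CPM in sgEgfr replicate 2, against 403 to 1359 CPM elsewhere. Oligodendrocyte precursor markers had a median of 0.96 (4 of 4 tested positive) and were also highest in that library, at 235 CPM against 47.8 to 129 CPM. Microglial markers had a median log2 fold change of 1.35 (7 of 7 positive), while their means overlapped, at 1.91 to 5.79 log2 CPM in sgEgfr and 2.41 to 4.26 in sgRosa. All 7 astrocyte markers were detected in every library, with summed levels of 554 to 866 CPM in sgRosa and 452 to 1074 CPM in sgEgfr. Egfr itself had 1, 26 and 23 counts in sgRosa and 6, 18 and 6 in sgEgfr. These counts check nothing, since the edited astrocytes were not the cells enriched. In such bulk libraries fewer cells of a type and less RNA per cell cannot be told apart.

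No guidance gene passed the comparison of sgEgfr with sgRosa. It asks how libraries of cells sorted as neurons, mixed with RNA of other cells, differed when nearby astrocytes of stressed mice carried guides against Egfr. Of the 68 members 57 had enough reads to be tested, and 0 of them passed an adjusted p of 0.05 (edgeR, quasi-likelihood, Benjamini-Hochberg over all 13159 tested genes), as did 0.0% of all genes. At an unadjusted p under 0.05 stood 3 members, all with higher levels in sgEgfr: the semaphorin Sema7a, the ephrin Efnb2 and the plexin Plxna2. That is 3 of 57, against 6.16% of all tested genes in either direction and 3.23% in this direction (2.93% in the other), a share near the background. By DESeq2, which called 0.251% of all genes, and by limma-voom, which called 0.0%, 0 members passed either. DESeq2 gave no adjusted p for many tested members, among them Sema4b, Sema5b, Epha2, Efna2, Robo1 and Dcc. Both tested netrins and every tested class 3 semaphorin except Sema3c also had none. For such members it was no second test. Log2 fold changes were positive for 33 members and negative for 24, with a median of 0.11, whereas 46.3% of all tested genes were positive (median -0.04). Ligands had a median of 0.10 (15 of 29 positive) and receptors of 0.19 (18 of 28 positive). The unadjusted count moved with the fit: it was 10 by limma-voom (15% of all genes), 13 of 56 without both choroid plexus libraries (11.9%), 6 with the pan-neuronal mean as covariate (11.3%), 5 with the oligodendrocyte mean (9.13%), 5 without sgRosa replicate 2 (5.96%) and 1 without sgEgfr replicate 3 (2.81%). It was highest, at 20, without sgRosa replicate 3, as described with the patterns across libraries. The sign count was no firmer: 24 of 58 tested members were positive without sgRosa replicate 1 (median -0.08), 28 of 58 without sgEgfr replicate 3 (median -0.01) and 28 of 57 with the pan-neuronal covariate (median -0.005). Of the 12 families, 9 had a median that changed sign under some alternative, the exceptions being the Robos, the netrins and Dcc with Unc5. The pan-neuronal and oligodendrocyte means come from the same libraries and differ between the groups. Fits with them as covariates therefore cannot tell cell makeup from the guide.

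**Figure D1:**
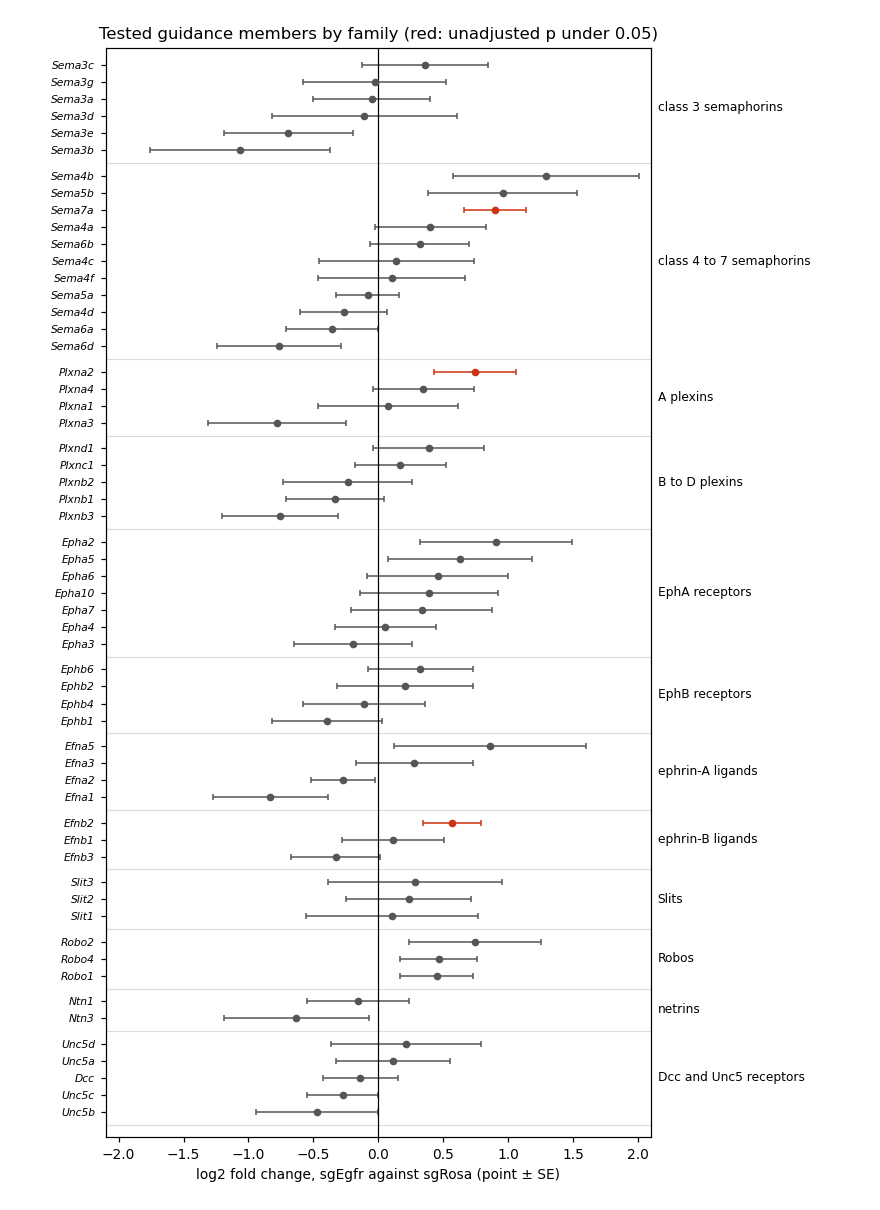
Log2 fold change of sgEgfr against sgRosa for the 57 tested guidance genes, grouped by family; points are edgeR estimates and bars are ± 1 SE, with the 3 members at an unadjusted p under 0.05 in red. Values run from -1.07 for Sema3b to 1.29 for Sema4b, and no family lies wholly to one side except the Slits and Robos (positive) and the netrins (negative).

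Sema7a, a semaphorin with a lipid anchor that binds plexin C1 and integrins, had the smallest p of any member. Sema7a had 14.1, 15.5 and 11.1 CPM in sgRosa and 22.8, 26.6 and 25.7 CPM in sgEgfr in replicate order, which is the order used throughout. The lowest sgEgfr library was above the highest sgRosa library, and the means were 13.5 ± 2.24 and 25.03 ± 1.96 CPM (SD, n = 3 libraries each) for sgRosa and sgEgfr. Its log2 fold change was 0.90 (SE 0.24), rank 51 by p among 13159 genes, with an adjusted p of 0.781 by edgeR. Leaving out any one library gave 0.76 to 1.02, and with the libraries' pan-neuronal means as covariate the value was 1.06. Sema7a lies at chromosome 9, 57940112 to 57962865, plus strand (mm10). The values of its receptor gene Plxnc1 overlapped between the groups, at 15.2, 23.4 and 39.6 CPM in sgRosa and 31.6, 26.3 and 30.8 CPM in sgEgfr, with a log2 fold change of 0.17 (SE 0.35).

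Efnb2, which encodes the transmembrane ligand ephrin-B2, known from arteries and from synapses, was the other member that was higher in every sgEgfr library. Efnb2 had 27, 23.4 and 28.3 CPM in sgRosa and 31.99, 40.4 and 44.4 CPM in sgEgfr, with means of 26.2 ± 2.53 and 38.9 ± 6.34 CPM (SD, n = 3 libraries each) for sgRosa and sgEgfr. The log2 fold change was 0.57 (SE 0.22), and it lay between 0.49 and 0.69 when single libraries were left out. With the pan-neuronal or oligodendrocyte mean as a covariate it was 0.50 or 0.51. The adjusted p by edgeR was 0.781. Efnb2 lies at chromosome 8, 8617434 to 8661242, minus strand. Together with the ephrin Efna2 these were the 3 members whose groups did not overlap, 2 higher and 1 lower in sgEgfr, against 13.4% of all tested genes (5.8% higher and 7.6% lower).

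Plxna2 encodes a receptor for membrane semaphorins of class 6 and, with neuropilins, for class 3. Plxna2 had 66.1, 77.3 and 123 CPM in sgRosa and 151, 112 and 184 CPM in sgEgfr. The groups overlapped, because sgRosa replicate 3 was above sgEgfr replicate 2. The log2 fold change was 0.74 (SE 0.32) with an adjusted p of 0.781 by edgeR, and it was 0.36 with the pan-neuronal covariate and 0.45 with the oligodendrocyte covariate. Plxna2 lies at chromosome 1, 194618218 to 194816869, plus strand.

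The values of Sema7a, Efnb2 and Plxna2 are plotted by library together with 3 members chosen after their values were seen.

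**Figure D2:**
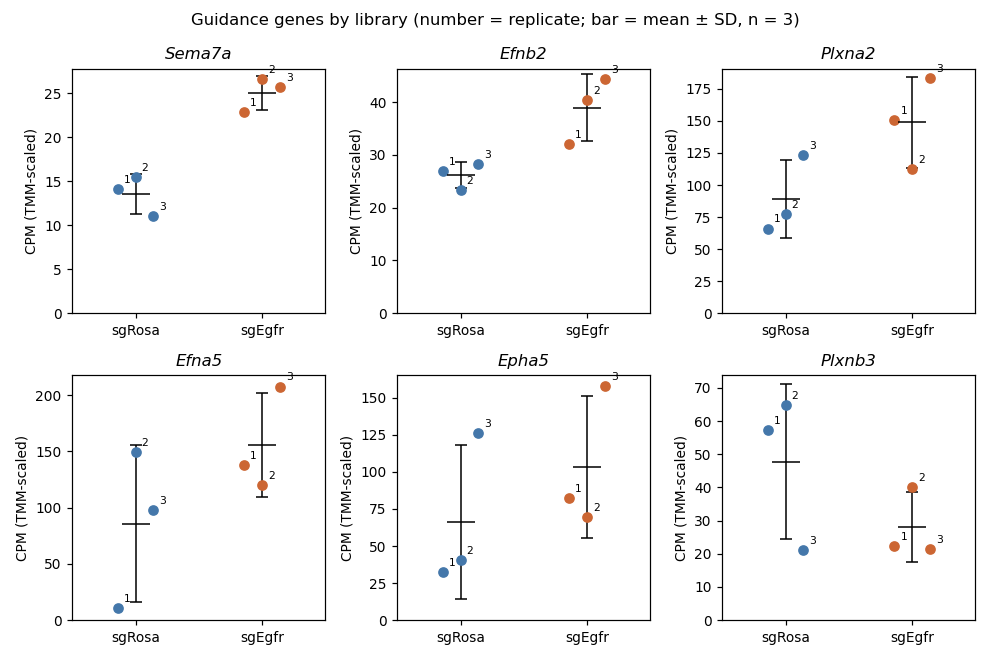
TMM-scaled CPM of 6 guidance genes in each library, with replicate numbers beside the points and mean ± SD (n = 3) as bars. Sema7a and Efnb2 have all sgEgfr points above all sgRosa points, Efna5 has a single low point in sgRosa replicate 1 at 10.97 CPM, and sgRosa replicate 3 lies apart from replicates 1 and 2 for Epha5 (high) and Plxnb3 (low).

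Of the 7 class 3 semaphorins, which are secreted, 6 were tested and 5 of these had negative log2 fold changes (median -0.08, and -0.42 to 0.025 when single libraries were left out). The best expressed was Sema3c, a ligand of neuropilin and plexin complexes, at 144, 87.3 and 32.1 CPM in sgRosa and 136, 89.7 and 111 CPM in sgEgfr. Its groups overlapped, with sgRosa replicate 3 far below the other libraries, and its log2 fold change of 0.36 was -0.05 without that library. Sema3b had 2.53, 6.68 and 14.3 CPM in sgRosa and 5.76, 4.24 and 1.17 CPM in sgEgfr, a log2 fold change of -1.07 (SE 0.69). Its highest library was sgRosa replicate 3, and without it that value was -0.18. Sema3e had 9.84, 8.35 and 4.41 CPM in sgRosa and 5.54, 5.802 and 1.95 CPM in sgEgfr, with a log2 fold change of -0.69 (SE 0.50). Its product binds plexin D1 without a neuropilin. Sema3a, the classical repellent of sensory and cortical axons, was at 5.62, 16.3 and 14.2 CPM in sgRosa and 12.2, 7.36 and 15.6 CPM in sgEgfr. Its log2 fold change was -0.05. Sema3d (-0.11) and Sema3g (-0.03) also lay near 0, and the groups of all 6 genes overlapped. Sema3f had 2 to 6 counts per library and was not tested.

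Of the 13 semaphorins of classes 4 to 7, 11 were tested, 7 with positive and 4 with negative log2 fold changes (median 0.14). Sema4b had 0.844, 7.52 and 4.95 CPM in sgRosa and 5.12, 18.3 and 8.57 CPM in sgEgfr, the largest positive log2 fold change of any member at 1.29 (SE 0.71). The value was 0.67 without sgEgfr replicate 2, its highest library, and in sgRosa replicate 1 the level rests on 3 counts. Like Sema5b, Epha2, Sema7a, Robo1, Ephb2 and Efnb3, Sema4b was highest in sgEgfr replicate 2. That library held the highest value of 7 members (12.3%, against 12.6% of all tested genes). It also had the most red blood cell, oligodendrocyte precursor, microglial and astrocyte markers, whose part in these values was not tested. Sema5b, which encodes a transmembrane semaphorin with thrombospondin repeats, was at 1.12, 7.101 and 4.23 CPM in sgRosa and 5.54, 9.59 and 8.57 CPM in sgEgfr, with a log2 fold change of 0.96 (SE 0.57). It too was lowest in sgRosa replicate 1 and was 0.55 without it. Sema6a, a transmembrane ligand of plexins A2 and A4, was at 83.8, 72.3 and 33.6 CPM in sgRosa and 44.1, 59.8 and 43.6 CPM in sgEgfr. Its levels were highest in sgRosa replicates 1 and 2 (log2 fold change -0.36, SE 0.35), as were those of Sema6d, at 106, 52.6 and 26.1 CPM in sgRosa and 31.6, 46.6 and 30 CPM in sgEgfr (log2 fold change -0.77, SE 0.48). Without sgRosa replicate 1 the value of Sema6d was -0.096. Sema4d, the ligand of plexin B1, was highest in sgRosa replicate 1 and sgEgfr replicate 2, at 61.3, 54.3 and 31.3 CPM in sgRosa and 35.8, 55.6 and 30 CPM in sgEgfr (log2 fold change -0.27). sgRosa replicates 1 and 2 also had the highest oligodendrocyte and inhibitory neuron means. With the oligodendrocyte mean as a covariate the value of Sema6a was 0.11, and with the pan-neuronal mean 0.25. The part of cell makeup in these values was not tested. Sema4a (0.40), Sema6b (0.32), Sema4c (0.14), Sema4f (0.10) and Sema5a (-0.08) had overlapping groups. The median of these classes was 0.76 without sgRosa replicate 3 and -0.04 without sgRosa replicate 1.

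The A plexins are the signalling partners of neuropilins, and 3 of 4 had positive log2 fold changes (median 0.21). Besides Plxna2, Plxna4 had 14.9, 19.6 and 40.3 CPM in sgRosa and 29, 26.8 and 40.5 CPM in sgEgfr (log2 fold change 0.35, SE 0.39). Plxna3 had 2.25, 5.85 and 6.48 CPM in sgRosa and 1.92, 4.24 and 2.34 CPM in sgEgfr, the one negative value at -0.78 (SE 0.53); plexin A3 is a receptor for Sema3f. Plxna1 was at 5.06, 17.5 and 28.8 CPM in sgRosa and 20.05, 13.8 and 21.04 CPM in sgEgfr (log2 fold change 0.07), with sgRosa replicates 1 and 3 at the extremes, and its value ran from -0.34 without the first to 0.73 without the second. Leaving out sgRosa replicate 3 gave a median of 0.81 and leaving out sgRosa replicate 1 gave -0.12, and with the pan-neuronal covariate it was -0.225.

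Plexins B to D were all tested, 2 positive and 3 negative (median -0.24). Plexin B3, a receptor for Sema5a that oligodendrocytes are known to express, had Plxnb3 levels of 57.4, 64.7 and 21.2 CPM in sgRosa and 22.4, 40.2 and 21.4 CPM in sgEgfr. Both high values were in sgRosa replicates 1 and 2, and the log2 fold change was -0.76 (SE 0.45). With the pan-neuronal covariate that value was 0.05 and with the oligodendrocyte covariate -0.17. The part of cell makeup in it was not tested. Plxnb1 had 28.97, 24.2 and 15.7 CPM in sgRosa and 16.8, 26.3 and 10.9 CPM in sgEgfr (log2 fold change -0.33, SE 0.38). Plxnd1, the Sema3e receptor gene, went the other way at 38.2, 18.8 and 66.8 CPM in sgRosa and 59.3, 40.8 and 63.1 CPM in sgEgfr (log2 fold change 0.39, SE 0.43). Plxnb2 had a log2 fold change of -0.24 and was lowest in sgRosa replicate 1 at 10.4 CPM.

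EphA receptors had the highest median among the families of Eph receptors and ephrins, 0.39, with 6 of 7 tested members positive, but no member separated the groups. Epha5 had 32.3, 40.5 and 126 CPM in sgRosa and 82.5, 69.4 and 158 CPM in sgEgfr (log2 fold change 0.63, SE 0.55). Epha6 had 28.7, 27.6 and 105 CPM in sgRosa and 63.6, 55.6 and 105 CPM in sgEgfr (log2 fold change 0.46, SE 0.54). For both, as for Epha4 and Epha7, sgRosa replicates 1 and 2 were the 2 lowest libraries and sgRosa replicate 3 and sgEgfr replicate 3 the 2 highest. Epha4 was at 63.8, 58.5 and 139 CPM in sgRosa and 87.9, 66.5 and 118 CPM in sgEgfr. Epha7 was at 25.3, 16.3 and 66.8 CPM in sgRosa and 43.5, 26.8 and 68.2 CPM in sgEgfr. Epha4 and Epha7 had log2 fold changes of 0.05 and 0.33, and leaving out single libraries gave -0.14 to 0.56 and -0.011 to 1.13. The pan-neuronal mean was lowest in the same 2 libraries. With that mean as a covariate the family median was -0.21, and without sgRosa replicate 3 the median was 1.03. The part of neuron content in these values was not tested. Epha2 had 4.22, 6.68 and 3.96 CPM in sgRosa and 5.54, 17.4 and 3.897 CPM in sgEgfr, where 1 library, sgEgfr replicate 2, stood above the rest, and the log2 fold change of 0.91 was 0.00 without it. Epha10, whose product lacks kinase activity, was at 0.39 and Epha3 at -0.19. Epha1 and Epha8 had at most 5 counts in any library.

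EphB receptors were split, 2 positive and 2 negative of 4 tested (median 0.05). Ephb1 had 59.1, 53.5 and 20.9 CPM in sgRosa and 36.9, 42.4 and 21.4 CPM in sgEgfr (log2 fold change -0.39, SE 0.42), with the highest levels in sgRosa replicates 1 and 2. Ephb6 had 6.75, 14.2 and 19.5 CPM in sgRosa and 21.5, 13.6 and 15.98 CPM in sgEgfr (log2 fold change 0.32, SE 0.40). Its product is a receptor without kinase activity. Ephb2, which encodes a synaptic receptor, had few reads, at 1.41, 2.92 and 3.24 CPM in sgRosa and 2.35, 4.46 and 1.95 CPM in sgEgfr (log2 fold change 0.20, SE 0.53). Ephb4, the partner of ephrin-B2 on veins, was at 14.1, 14.6 and 4.59 CPM in sgRosa and 13.01, 8.03 and 8.96 CPM in sgEgfr (log2 fold change -0.11). Ephb3 was not tested.

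Of the ephrin-A ligands, 4 of 5 were tested, 2 positive and 2 negative (median 0.00). Efna5, the ephrin-A gene with the highest level per length, was at 10.97, 149 and 97.7 CPM in sgRosa and 138, 120.5 and 208 CPM in sgEgfr. In sgRosa replicate 1 it was at 39 counts, while every other library had 357 or more. The log2 fold change of 0.86 (SE 0.74) was 0.35 without that library. Efna1 had 51.7, 34.3 and 13.3 CPM in sgRosa and 18.3, 18.7 and 18.3 CPM in sgEgfr; the ligand is known from blood vessels. Its 3 sgEgfr libraries were close together while sgRosa ran from above to below them (log2 fold change -0.83, SE 0.44). Endothelial markers, all 6 detected in every library, had a mean of 8.01 log2 CPM in sgRosa replicate 1 and 5.94 in sgRosa replicate 3, the libraries where Efna1 was highest and lowest. The part of these cells in the value of Efna1 was not tested, and with the pan-neuronal covariate that value was -0.015. Efna2 had 13.8, 11.3 and 12.1 CPM in sgRosa and 10.4, 9.82 and 10.5 CPM in sgEgfr, lower in every sgEgfr library by a small amount (log2 fold change -0.27, SE 0.25). Efna3 was at 10.7, 12.1 and 33.04 CPM in sgRosa and 21.8, 18.5 and 28.8 CPM in sgEgfr (log2 fold change 0.28), and Efna4 had at most 3 counts.

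All 3 ephrin-B ligands were tested, 2 positive and 1 negative (median 0.11). Besides Efnb2, Efnb3 had 120.1, 113 and 78.9 CPM in sgRosa and 68.7, 124 and 54.9 CPM in sgEgfr (log2 fold change -0.33, SE 0.35), and Efnb1 had 11.5, 24.2 and 23.8 CPM in sgRosa and 17.3, 15.6 and 31.95 CPM in sgEgfr (log2 fold change 0.11, SE 0.39). The groups of both overlapped, and without sgRosa replicate 1 Efnb1 was at -0.14, and leaving out sgEgfr replicate 3 gave -0.24.

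The 3 Slits and the 3 tested Robos all had positive log2 fold changes, with family medians of 0.23 and 0.46, and none passed. Slit1 had 6.19, 7.101 and 31.1 CPM in sgRosa and 18.1, 8.03 and 23.4 CPM in sgEgfr (log2 fold change 0.10, SE 0.66). Slit2 had 7.59, 33.4 and 16.2 CPM in sgRosa and 19.6, 26.6 and 20.3 CPM in sgEgfr (log2 fold change 0.23, SE 0.48). Slit3 had 1.12, 8.77 and 8.82 CPM in sgRosa and 5.76, 5.58 and 12.1 CPM in sgEgfr (log2 fold change 0.28, SE 0.67). All 3 were lowest in sgRosa replicate 1, and without it their log2 fold changes were -0.24, -0.13 and -0.19. With the pan-neuronal covariate the Slit median was -0.14. Among the receptors, Robo1 had 9.28, 14.2 and 8.91 CPM in sgRosa and 14.5, 15.2 and 14.03 CPM in sgEgfr (log2 fold change 0.45, SE 0.28), with sgRosa replicate 2 inside the range of sgEgfr. Robo2 had 16.03, 16.7 and 47.98 CPM in sgRosa and 42.01, 26.8 and 68.6 CPM in sgEgfr (log2 fold change 0.74, SE 0.51), with its lowest values in sgRosa replicates 1 and 2. With the pan-neuronal covariate the value of Robo2 was 0.07. Robo4, an endothelial receptor, was at 27, 21.3 and 13.1 CPM in sgRosa and 28.4, 26.6 and 29.2 CPM in sgEgfr (log2 fold change 0.46, SE 0.29), with sgRosa replicate 3 lowest as for the endothelial markers. The Robo median lay between 0.32 and 0.56 when single libraries were left out. Robo3 had at most 10 counts and was not tested.

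Both tested netrins had negative log2 fold changes (median -0.40), on few reads. Ntn1 had 9.84, 13.8 and 6.21 CPM in sgRosa and 8.104, 11.6 and 6.23 CPM in sgEgfr (log2 fold change -0.16, SE 0.39). Ntn3 had 1.69, 4.18 and 6.75 CPM in sgRosa and 2.56, 3.79 and 1.95 CPM in sgEgfr (log2 fold change -0.63, SE 0.56), and its exons overlap those of Tbc1d24 on the same strand and BC028777 on the other, so its reads are uncertain. Without sgRosa replicate 3 the value of Ntn3 was 0.01. Ntn4 and Ntn5 had at most 5 counts.

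The netrin receptors gave 2 positive and 3 negative values (median -0.14). Dcc, the attractive receptor, was at 10.97, 9.61 and 10.4 CPM in sgRosa and 7.89, 8.48 and 12.1 CPM in sgEgfr (log2 fold change -0.14, SE 0.29). Unc5b had 57.1, 35.1 and 18.2 CPM in sgRosa and 25.2, 38.6 and 15.2 CPM in sgEgfr (log2 fold change -0.47, SE 0.47); it is also an endothelial receptor. Unc5c had 20.5, 25.1 and 16.7 CPM in sgRosa and 13.01, 18.5 and 19.9 CPM in sgEgfr (log2 fold change -0.27, SE 0.27). Unc5a had 13.2, 14.6 and 38.8 CPM in sgRosa and 24.5, 18.5 and 30.4 CPM in sgEgfr (log2 fold change 0.12, SE 0.44), and Unc5d was at 16.9, 22.97 and 77.4 CPM in sgRosa and 44.6, 28.1 and 65.1 CPM in sgEgfr (log2 fold change 0.21). The value of Unc5d ran from -0.12 to 1.203 when single libraries were left out. Unc5a and Unc5d had their 2 lowest values in sgRosa replicates 1 and 2, whereas Unc5b was highest in sgRosa replicate 1.

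Members varied between libraries more than the median gene did. Their median range over the 6 libraries was 1.61 log2 CPM, against 1.14 over all tested genes. The SD of log2 CPM was larger among sgRosa than among sgEgfr libraries for 48 of 57 members (9748 of 13159 tested genes), with medians over members of 0.82 and 0.41, against 0.46 and 0.28 over all genes. For 16 members both sgRosa replicates 1 and 2 lay below all other libraries, a pattern found in 17.6% of tested genes: Plxna2, Plxna4, Plxnc1, Plxnd1, Epha4, Epha5, Epha6, Epha7, Robo2, Slit1, Unc5a, Unc5d, Sema4a, Sema6b, Efna3 and Efnb2. For 8 members both lay above all others, as in 14.9% of tested genes: Plxnb3, Ephb1, Ephb4, Unc5c, Sema3e, Sema6a, Sema6d and Efna1. The pan-neuronal and excitatory means showed the first pattern and the oligodendrocyte and inhibitory means the second, a likeness noticed after the values were seen. Its meaning was not tested. sgRosa replicate 1 held the lowest value of 26 members (45.6%), against 26.8% of all tested genes, and sgEgfr replicate 3 the highest of 14 (24.6%, against 13.1%). Among sgRosa libraries, replicate 3 had the highest pan-neuronal mean, the most counts (10152812) and the most choroid plexus markers (3395 CPM). Without it, 20 of 57 members (35.1%) stood at an unadjusted p under 0.05 by edgeR, against 20.4% of all genes. Of these members 15 were higher and 5 lower in sgEgfr, against 11.5% and 8.89% of all genes. The adjusted threshold was passed by 0 members. Which trait of the omitted library matters was not tested.

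The heat map of members by library shows these patterns beside the marker lists.

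**Figure D3:**
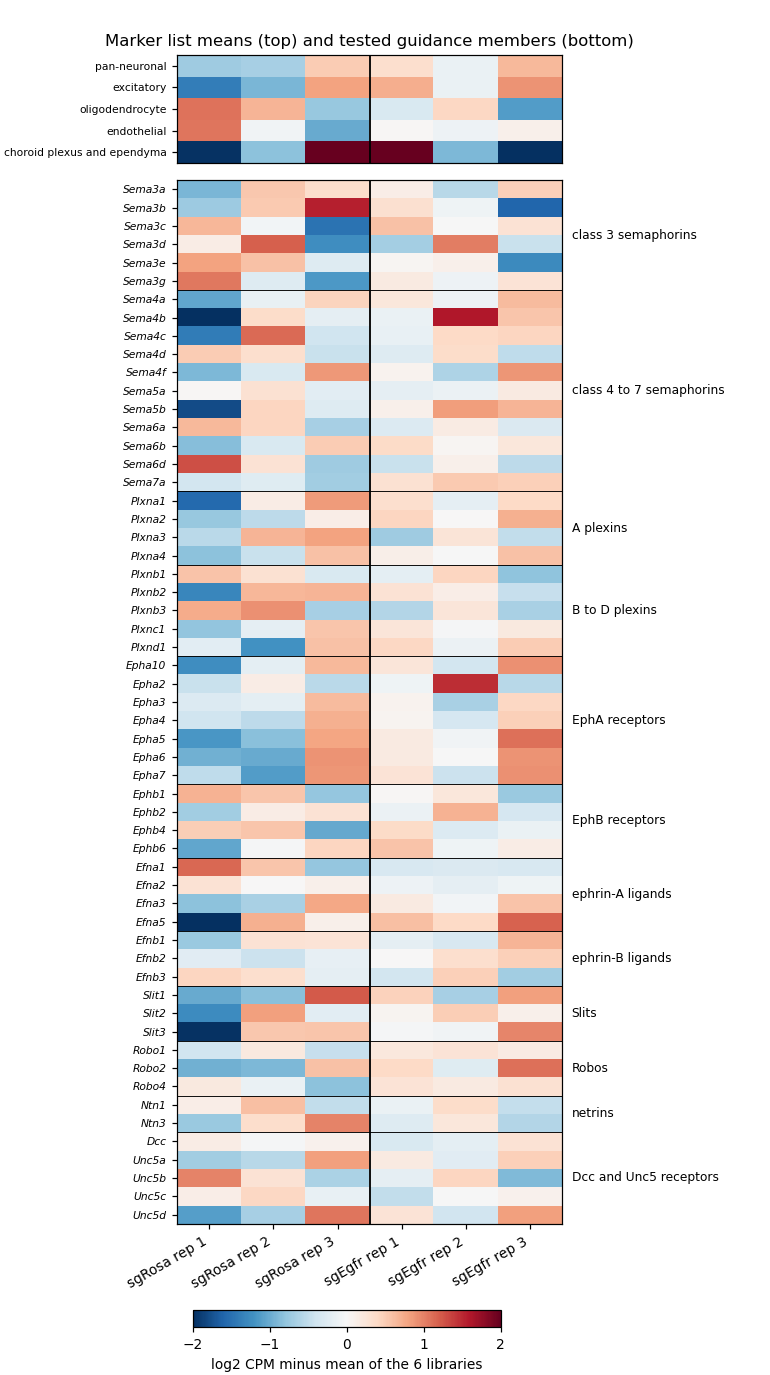
Log2 CPM of each tested member (log2 of CPM + 0.5) minus its mean over the 6 libraries, with the means of marker lists above, centred in the same way. Colours end at ± 2, a limit that some choroid plexus values pass. Epha5, Epha6, Epha7, Robo2, Slit1 and Unc5d rows are blue in sgRosa replicates 1 and 2 and red in sgRosa replicate 3 like the pan-neuronal row, and Plxnb3, Ephb1, Sema6a and Sema6d rows are the reverse.

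Levels were also compared between genes, as CPM per kb of merged exons averaged over the 6 libraries (mean ± SD, n = 6). The 2 highest members were ephrins, Efna5 at 29.9 ± 16.2 and Efnb3 at 29.3 ± 9.23, followed by Efna1 at 14.1 ± 7.96, Sema3c at 14 ± 5.67, Epha6 at 12.1 ± 6.56 and Epha4 at 11.03 ± 4.07. Their ranges over the libraries overlapped one another, except those of Efnb3 and Epha4. With the longest transcript as length, Efna1 (15.8) came below Sema3c (18.2) and Epha6 (16.3). Within ephrin-B, the range of Efnb3 over the libraries lay above that of Efnb1 (6.005 ± 2.13), which overlapped Efnb2 (4.75 ± 1.195). Plxna2 (6.92 ± 2.57) lay above the other A plexins, of which Plxna4 (2.02 ± 0.744) and Plxna1 (1.96 ± 0.876) overlapped. Among the other plexins Plxnd1 (6.55 ± 2.53) and Plxnb3 (5.83 ± 3) came first and their ranges overlapped. Sema6a (6.403 ± 2.19), Sema7a (5.85 ± 1.99) and Sema4d (5.82 ± 1.804) led the membrane semaphorins with overlapping ranges. With the longest transcript as length Sema4d came first, at 9.98 ± 3.09. Robo4 (4.57 ± 1.16) overlapped Robo2 (2.14 ± 1.21), and both ranges lay above that of Robo1 (0.768 ± 0.1701). With the longest transcript as length, Robo1 was at 1.68 ± 0.371 and its range overlapped that of Robo2 (4.23 ± 2.38). Unc5a (5.601 ± 2.38), Unc5b (5.04 ± 2.48) and Unc5d (4.61 ± 2.65) overlapped one another and lay above Unc5c (0.991 ± 0.2104) and Dcc (0.752 ± 0.119). With the longest transcript Unc5c was at 1.97 ± 0.417 and overlapped Unc5b and Unc5d. Slits and netrins were low, led by Slit1 (2.65 ± 1.73) and Ntn1 (1.48 ± 0.484).

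The plot of levels per length shows these orders.

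**Figure D4:**
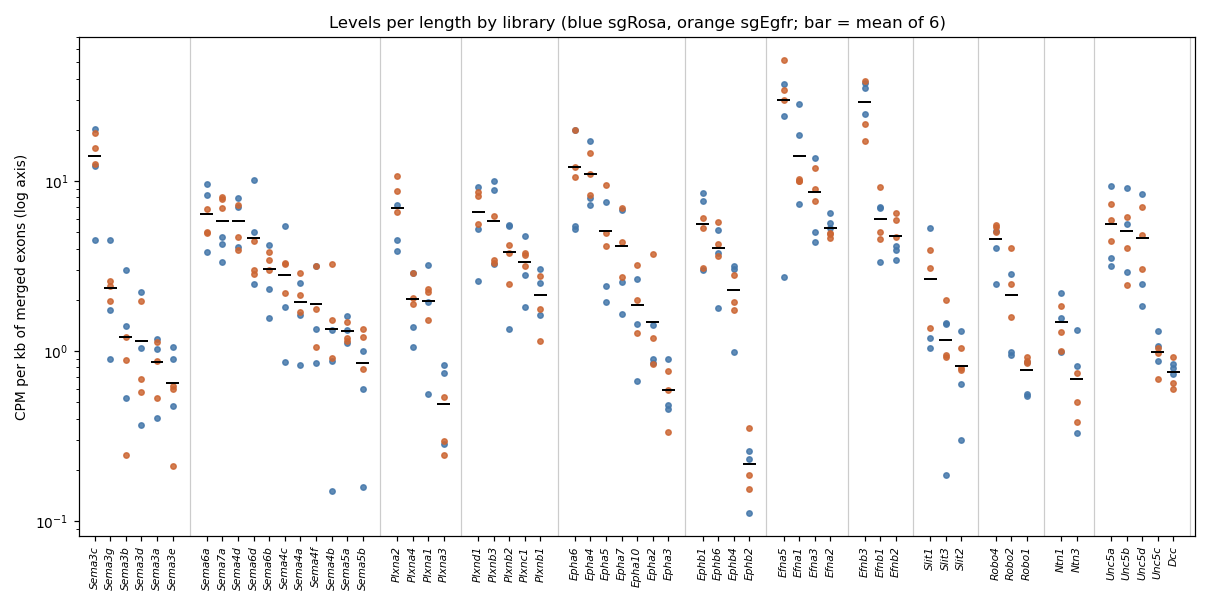
CPM per kb of merged exons for each tested member on a log axis, ordered within each family; points are libraries (blue sgRosa, orange sgEgfr) and bars are means of 6. Efna5 and Efnb3 have the highest means, and in most families neighbouring members overlap in their ranges.

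The rest of the pathway also gave no call. Of 47 co-receptors, cytoplasmic effectors and other guidance proteins listed beside the families, 45 were tested, and 31 had positive and 14 negative log2 fold changes (median 0.21). By edgeR 0 passed, and 1 had an unadjusted p under 0.05, against 6.16% of all tested genes: Farp2, an exchange factor downstream of A plexins, at 5.91, 9.19 and 6.301 CPM in sgRosa and 4.48, 3.79 and 3.51 CPM in sgEgfr (log2 fold change -0.83, SE 0.35, adjusted p 0.781). All its sgEgfr libraries lay below all sgRosa libraries. Its relative Farp1 had the opposite sign, at 10.7, 13.4 and 16.5 CPM in sgRosa and 20.9, 19.2 and 16.8 CPM in sgEgfr (log2 fold change 0.48, SE 0.26). Next by p came Fyn, a kinase recruited by several guidance receptors, at 37.7, 44.7 and 57.9 CPM in sgRosa and 57.4, 77.7 and 56.9 CPM in sgEgfr (log2 fold change 0.45, SE 0.25). Trio, an exchange factor downstream of Dcc, was at 17.4, 18.8 and 41.4 CPM in sgRosa and 39.2, 35.3 and 45.6 CPM in sgEgfr (log2 fold change 0.61, SE 0.36). The groups of Fyn and Trio overlapped. Dpysl2, named after its values were seen, was the other gene of this list that was higher in every sgEgfr library, at 5172, 8632 and 7667 CPM in sgRosa and 9877, 11767 and 9789 CPM in sgEgfr (log2 fold change 0.55, SE 0.40), so 3 of 45 were separated, against 13.4% of all tested genes.

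The 11 members that were not tested were Sema3f, Sema4g, Sema6c, Plxna4os1, Epha1, Epha8, Ephb3, Efna4, Robo3, Ntn4 and Ntn5. Sema4g and Ephb3 reached 33 and 32 counts in sgRosa replicate 3, the deepest library, and the others had 10 counts or fewer everywhere, so differences in them were not detectable at this depth. Exons of Plxna1, Plxna4, Plxnb1, Unc5a, Unc5c, Epha1, Epha6, Epha10, Ephb1, Ephb4, Sema4c, Efna3, Efna4, Ntn3 and Ntn5 share bases with exons of an opposite-strand gene, and which of these genes a read came from cannot be told apart without a strand setting.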

How the data were processed

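Reads of 6 libraries, 3 sgRosa and 3 sgEgfr by the sample titles, were used as whole-number counts per gene, deposited by the authors without normalization. The genome build was mm10, and featureCounts 2.0.1, STAR 2.7.5c and fastp 0.23.2 are named in the submitters' processing notes, with MultiQC 1.11, FastQC 0.11.9 and edgeR 3.42.4. Annotation, options and strand setting are not given in the sources used here. Libraries were made, per the labels' protocols, from 5 ng of RNA, so low counts are amplified by PCR and floors cover counting error only. The series table repeats the 6 columns, and 3 further columns that match no sample were not used. Genes passing filterByExpr (minimum count 10, minimum total 15) were fitted by edgeR 4.0.16 in R 4.3.3 (TMM, robust quasi-likelihood, common biological coefficient of variation 0.355); DESeq2 1.42.0 and limma 3.58.1 (voom) were alternatives. The scripts were tested on simulated data. Lengths and positions come from GENCODE M21 (GRCm38), which matched all 68 members; promoters come from RefSeq. No 2 libraries agreed within sampling noise (lowest chi-square per degree of freedom 10.41). Members and lists were chosen with earlier results of these data known. Values by library are given, by rule, for the highest member per length and the 3 smallest unadjusted p in each family, and for members at an unadjusted p under 0.05; Sema3a, Sema4d, Sema6d, Plxna1, Plxnc1, Epha4, Epha7, Ephb4, Efna3 and Unc5d were added after their values were seen. Other pathway genes are the 4 smallest p.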

Additional observations from a re-analysis of the deposited data

How the results depend on the processing

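Over the 17 alternatives, 0 members passed an adjusted p of 0.05 by any tool, while DESeq2 called 33 genes. For many members DESeq2 gave no adjusted p. The count of members at an unadjusted p under 0.05 was 3 and ran from 1 (without sgEgfr replicate 3) to 20 (without sgRosa replicate 3) when single libraries were left out, with 5 without sgRosa replicate 2. It was 10 by limma-voom, 8 of 57 with the replicate block (against 10% of all genes), 13 without both choroid plexus libraries, 6 with the pan-neuronal and 5 with the oligodendrocyte covariate, and the cause was not tested. Same-numbered libraries had correlations of -0.0311, 0.478 and 0.279, while those of differently numbered libraries ran from -0.455 to 0.207. These values do not settle whether the numbers are pairs. They were not taken as pairs in the main fit, and the block changed no other call. When single libraries were left out, family medians ran from -0.42 to 0.025 for class 3 semaphorins, -0.12 to 0.23 for EphB, -0.65 to -0.19 for netrins, -0.20 to -0.017 for Dcc and Unc5, -0.19 to 0.71 for Slits, 0.32 to 0.56 for Robos, -0.044 to 0.76 for class 4 to 7 semaphorins, -0.12 to 0.81 for A plexins, -0.28 to 0.066 for B to D plexins, 0.049 to 1.03 for EphA, -0.096 to 0.34 for ephrin-A, -0.14 to 0.34 for ephrin-B and -0.004 to 0.59 for all receptors. Without both choroid plexus libraries the medians were 0.74 for class 4 to 7 semaphorins, 0.81 for A plexins, 1.09 for EphA, -0.75 for EphB (3 genes, since Ephb2 was not tested there), 0.37 for ephrin-A, 0.42 for ephrin-B and 0.58 for receptors. With the pan-neuronal covariate they were 0.32 for class 3 semaphorins, -0.21 for EphA, -0.225 for A plexins, -0.142 for Slits, -0.101 for ephrin-A, -0.005 for all members and -0.068 for receptors, and by limma-voom -0.068 for ephrin-B. Of the 37 members named by rule, 19 changed sign under some alternative. With the pan-neuronal covariate Efnb1 was at -0.23, Efnb3 0.035, Epha5 -0.02, Epha6 -0.11, Ephb1 0.37, Ntn1 0.31, Plxna4 -0.076, Plxnb1 0.12, Plxnb3 0.045, Plxnd1 -0.059, Sema6a 0.25, Slit1 -0.63, Slit3 -0.14, Unc5a -0.37 and Unc5b 0.27. With the oligodendrocyte covariate Efnb1 was at -0.23, Ephb1 0.20, Ntn1 0.17, Plxnb1 0.02, Sema6a 0.11, Slit1 -0.39, Slit3 -0.098, Unc5a -0.21 and Unc5b 0.13. By limma-voom Efnb1 was at -0.068 and Ephb2 at -0.001, and without both choroid plexus libraries Ntn3 was at 0.083 and Sema3c at -0.20. When single libraries were left out the values ran from -0.24 to 0.34 for Efnb1, -0.21 to 0.52 for Ephb2, -0.42 to 0.15 for Ntn1, -0.97 to 0.014 for Ntn3, -0.051 to 0.93 for Sema3c, -0.24 to 1.297 for Slit1, -0.13 to 0.93 for Slit2, -0.19 to 0.71 for Slit3, -0.13 to 0.81 for Unc5a and -0.85 to 0.026 for Unc5b. Of the 20 tested members outside that rule, 14 changed sign when single libraries were left out. With the longest transcript as length, Robo1 was at 1.68, Robo2 at 4.23, Unc5c at 1.97 and Sema4d at 9.98, Plxna2 was at 10.8 and Ephb1 at 8.36 CPM per kb.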
